A study of Homo sapiens with 8 samples.

Results

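The genes described here are FLI1 and EWSR1, whose fusion drives Ewing sarcoma, and 8 transcription factor genes tied to that disease: NKX2-2, NR0B1, SOX2, GLI1, BCL11B, MYBL1, KLF15 and EGR2. They were chosen by name, and each matched 1 row of the expression table, giving 10 of 60332 genes. All 10 were among the 15372 genes that passed the filter for testing, at least 1 FPKM in at least 2 of 8 libraries. RNA was sequenced from SK-N-MC, an established Ewing sarcoma cell line, in 4 groups of 2 libraries each. All cells carried dCas9-KRAB, a Cas9 without cutting activity joined to a repressor domain, delivered by lentivirus and selected with puromycin as polyclonal pools. Control cells carried the vector with no guide and were grown in normoxia or in hypoxia, 16 h at 1% O2. The eKD1 and eKD2 cells each carried 1 of 2 guides that direct the repressor to a GGAA-repeat enhancer of LOXHD1 bound by EWSR1-FLI1, and both were kept for 16 h at 1% O2. Knockdown libraries in normoxia were not analysed here, so the effect of the guides is measured in hypoxia only. The study describes the libraries of a condition as biological duplicates, and the p-values measure the spread between these duplicates.

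The EWSR1-FLI1 fusion joins the 5′ part of EWSR1, including its promoter and activation domain, to the 3′ part of FLI1, which holds the ETS DNA-binding domain. The fusion protein binds GGAA motifs and, at runs of GGAA repeats, opens chromatin and builds new enhancers that activate genes silent in most tissues. A set of transcription factors is switched on below it or works beside it to keep the cells in the Ewing sarcoma state.

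A gene-level table cannot separate the fusion transcript from its parents. The FLI1 value sums reads of the 3′ part of the fusion and of any unrearranged FLI1 transcript, and the EWSR1 value sums the 5′ part of the fusion and the unrearranged EWSR1 allele. The unit is FPKM, in which fragments are divided by transcript length and by the mapped reads of the library, and differences are in log2(FPKM + 1), a scale that understates changes of low genes. Calls were made with limma at an adjusted p under 0.05, with Benjamini-Hochberg adjustment over 15372 genes. Absolute depth is unknown. Relative depth, read from the low values, was lowest in control normoxia replicate 2, at 55.7% of the deepest library, control hypoxia replicate 1. The libraries listed 19310 to 20770 genes above 0.

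The labelled cell type was checked against marker genes. CD99, the surface antigen used in diagnosis, lay between 305 and 417 FPKM. The other listed Ewing sarcoma markers were present too, STEAP1 at 64.1 to 115, PRKCB at 64.9 to 94.7 and LIPI at 10.8 to 57.2 FPKM. From control normoxia to control hypoxia CD99 rose by 0.38 in log2(FPKM + 1). STEAP1, PRKCB and LIPI went the other way, by -0.79, -0.38 and -2.17. Of 4 neuroblastoma markers, TH and DBH were listed at 0 in every library, PHOX2A stayed at or below 0.468 FPKM and HAND2 lay between 12.0 and 18.2 FPKM. MYOG and MYF5, which define skeletal muscle and rhabdomyosarcoma, were listed at 0, MYOD1 reached 0.789 FPKM and DES 0.0481 FPKM. All 4 fibroblast markers were present, with COL1A1 at 34.1 to 74.3, COL3A1 at 56.3 to 89.0, DCN at 131 to 153 and LUM at 37.0 to 52.0 FPKM. Their sum was 274 FPKM in both control normoxia libraries and 315 to 336 FPKM in the hypoxic ones, and its part in the results below was not tested. LOXHD1 was lower in both knockdowns than in control hypoxia, at 17.3 and 15.0 FPKM with eKD1 and 11.7 and 11.8 with eKD2 against 93.0 and 91.1 FPKM, so the libraries matched their labels. The difference was called in eKD1 (limma adjusted p = 0.0371) and in eKD2 (limma adjusted p = 0.00617). The call was lost in eKD1 when the variance trend was left out, and in both when the replicate number was fitted as a block. LOXHD1 was also lower in control hypoxia than in control normoxia, where it measured 156 and 169 FPKM. That log2 difference was -0.81 (limma adjusted p = 0.0082).

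Because the fusion acts through GGAA runs, the longest uninterrupted run of at least 4 GGAA, read on either strand, was found within 100 kb of each gene's start in the GRCh37 reference. The runs near NKX2-2, NR0B1, SOX2, EGR2 and FLI1 are shown to compare their lengths, with the repeats in capitals and 20 bases on either side in lower case.
NKX2-2, chr20:21556902-21557021, minus strand: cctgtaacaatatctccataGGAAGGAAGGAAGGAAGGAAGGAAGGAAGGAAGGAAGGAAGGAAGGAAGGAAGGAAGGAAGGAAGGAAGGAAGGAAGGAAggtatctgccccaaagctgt
NR0B1, chrX:30328855-30328938, minus strand: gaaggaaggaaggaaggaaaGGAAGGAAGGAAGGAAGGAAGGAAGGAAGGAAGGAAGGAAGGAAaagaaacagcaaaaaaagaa
SOX2, chr3:181391384-181391475, plus strand: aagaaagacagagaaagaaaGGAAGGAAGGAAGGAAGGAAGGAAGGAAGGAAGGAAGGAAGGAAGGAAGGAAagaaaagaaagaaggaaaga
EGR2, chr10:64488968-64489063, minus strand: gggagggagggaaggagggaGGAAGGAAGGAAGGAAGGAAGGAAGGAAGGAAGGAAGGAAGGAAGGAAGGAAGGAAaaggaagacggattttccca
FLI1, chr11:128553209-128553264, plus strand: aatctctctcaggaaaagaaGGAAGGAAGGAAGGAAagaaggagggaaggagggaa
The NKX2-2 run held 20 repeats and lay 62.3 kb upstream of the gene start, and only 0.193% of 20176 protein-coding genes had a run at least as long in the same window. The NR0B1 run of 11 repeats was the nearest of the long runs, 1.39 kb upstream. In the strand shown, further GGAA units precede it across a break of 1 base. SOX2 had 13 repeats 38.3 kb upstream, EGR2 had 14 repeats 89.9 kb downstream, MYBL1 had 14 repeats 68.3 kb downstream and KLF15 had 10 repeats 66.9 kb downstream. Runs of 10 or more were found at 18.5% of protein-coding genes, so those at NR0B1, SOX2, EGR2, MYBL1 and KLF15 were not rare by length alone. FLI1 had at most 4 repeats, 3.19 kb upstream, and no run of 4 or more was found around EWSR1, GLI1 or BCL11B. These are reference letters, and repeat lengths in SK-N-MC were not measured here.

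Control cells in hypoxia were set against those in normoxia to ask how the 10 genes respond to low oxygen. FLI1, EWSR1, NR0B1, SOX2, BCL11B, KLF15 and EGR2 fell in hypoxia, with log2 differences from -1.96 for EGR2 to -0.51 for BCL11B. NKX2-2, GLI1 and MYBL1 were not called. Of all genes tested, 16% were called lower in this comparison, against 7 of these 10. Both hypoxia libraries lay below both normoxia libraries for 8 of the 10, a pattern held by 34.5% of all genes tested, and for GLI1 and MYBL1 they lay above. The median difference of the 10 genes was -0.71, against 0.01 for all genes tested. In bulk RNA, fewer cells expressing a gene and less RNA per cell cannot be told apart.

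Rescaling the libraries to equal FPKM totals moved the median of all genes in this comparison to -0.19, and the share of calls that were higher from 50.3% to 28.4%. The 10 genes kept the sign of their difference under it, with a median of -0.94, and NKX2-2 was then also called lower. The calls of EWSR1, BCL11B and KLF15 were lost when no filter on low values was used.

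**Figure D1:**
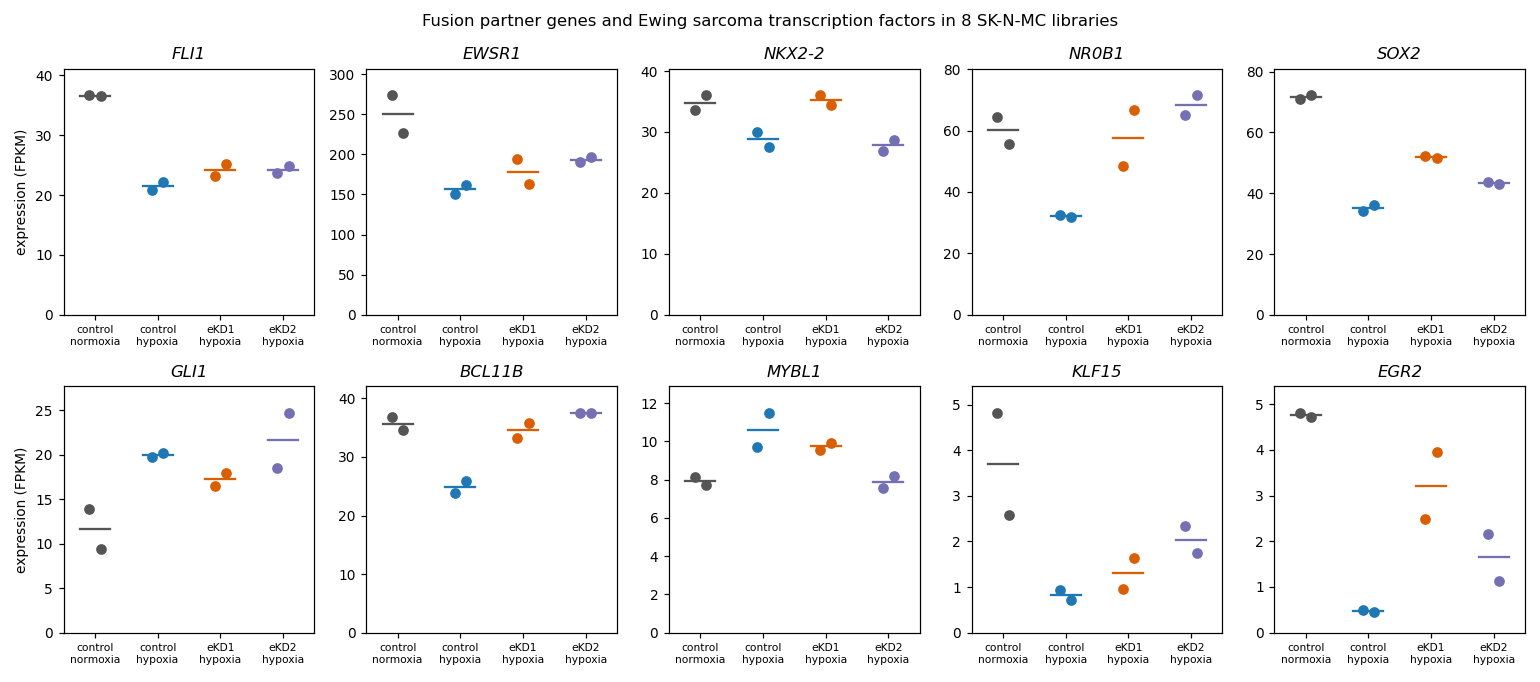
Expression in FPKM (y axis, linear and starting at 0, scaled for each gene) of the 10 genes in the 8 libraries, by group on the x axis. Points are libraries and bars are means of 2. FLI1, SOX2 and NR0B1 lie lower in control hypoxia than in control normoxia, and NR0B1 and BCL11B in the eKD groups lie back near the normoxia level, while FLI1 does not.

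FLI1 (chromosome 11 at 128556430 to 128683162, plus strand, GRCh37) is an ETS transcription factor gene, and its 3′ exons form the DNA-binding part of the fusion. It measured 36.7 and 36.5 FPKM in the normoxia libraries, 20.8 and 22.2 under hypoxia in control cells, 23.1 and 25.2 in eKD1 and 23.7 and 24.8 in eKD2. All 6 hypoxic libraries lay below both normoxic ones, and the eKD libraries lay just above control hypoxia without reaching normoxia. In hypoxia FLI1 fell by 0.74 (SE 0.0785, limma adjusted p = 0.011), to 58.7% of the normoxia mean. Against control hypoxia it differed by 0.16 in eKD1 (95% interval -0.10 to 0.43, limma adjusted p = 0.401) and by 0.17 in eKD2 (95% interval -0.07 to 0.41, limma adjusted p = 0.258). Its exons share 162 bases with SENCR, a long noncoding RNA gene on the other strand, and the library kit does not mark strand.

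EWSR1 (chromosome 22 at 29663998 to 29696515, plus strand, GRCh37) encodes an RNA-binding protein of the FET family, and its promoter drives the fusion. It was the most strongly expressed of the 10 genes, with FPKM being per length. Control normoxia held 274 and 227 FPKM, control hypoxia 151 and 162, eKD1 194 and 163, and eKD2 190 and 197 FPKM. Both hypoxic controls lay lowest, and the 2 normoxia libraries differed from each other by more than any other pair of duplicates. EWSR1 fell by 0.67 in hypoxia (SE 0.112, limma adjusted p = 0.024), to 62.5% of normoxia. In eKD2 the difference to control hypoxia was 0.30 (SE 0.0582, limma adjusted p = 0.0589), just short of the threshold, and in eKD1 it was 0.18 (limma adjusted p = 0.402), with 0.058 without eKD1 replicate 1 and 0.31 without replicate 2.

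The promoter of EWSR1 is shown because it is also the promoter of the fusion. It comes from RefSeq on GRCh38.p14 and runs from 250 bases before to 50 bases after the start, with GGAA, ACGTG and GCGTG on either strand in capitals. The last 2 are forms of the core of the hypoxia response element bound by HIF, and a CACGTG palindrome would count as ACGTG on both strands.
EWSR1, chr22:29268018-29268317, plus strand: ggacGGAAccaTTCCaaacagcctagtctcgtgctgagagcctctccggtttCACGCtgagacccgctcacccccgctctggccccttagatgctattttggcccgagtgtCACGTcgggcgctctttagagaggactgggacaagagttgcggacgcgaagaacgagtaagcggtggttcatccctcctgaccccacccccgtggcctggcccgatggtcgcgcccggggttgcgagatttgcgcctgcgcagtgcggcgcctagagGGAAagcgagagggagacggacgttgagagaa
It holds 3 GGAA, 1 ACGTG and 1 GCGTG. At least 1 GGAA is found in 95.5% of 35116 promoters of the same length, and ACGTG or GCGTG in 48.4%. The promoter table held 7 of the 10 genes, and those of FLI1, GLI1 and MYBL1 are not shown. ACGTG or GCGTG was found in at least 1 listed promoter of NKX2-2, NR0B1, BCL11B, KLF15 and EGR2, but not in that of SOX2. Such matches describe the letters of the window and not binding.

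The other ETS genes that can take the place of FLI1 in Ewing sarcoma fusions were low. ERG, the most common of them, stayed at or below 0.257 FPKM, ETV4 at or below 0.238 FPKM and FEV at or below 0.626 FPKM, all under the filter. ETV1 passed it, at 2.11 and 2.17 FPKM in control normoxia and up to 9.61 FPKM in eKD2. TAF15, an abundant FET gene, differed by 0.00 in hypoxia (95% interval -0.19 to 0.20). Among 10 tested ETS and FET relatives, 3 were called lower in hypoxia (ELF1, ELK1 and GABPA) and 2 higher, with ELK4 up by 1.16 (limma adjusted p = 0.00868) and ELK3 up by 0.81 (limma adjusted p = 0.0368). Over all genes tested 16% were called lower and 16.2% higher. With equal FPKM totals 6 were lower and 1 higher. In eKD2 only ELF1, an ETS activator, was called among them, up by 1.02 (limma adjusted p = 0.0287), against 5.8% of all genes called higher. In eKD1 limma called none of them and 0.0651% of all genes. At an unadjusted p under 0.05 there were 3, and the share of all genes at that threshold was not computed.

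**Figure D2:**
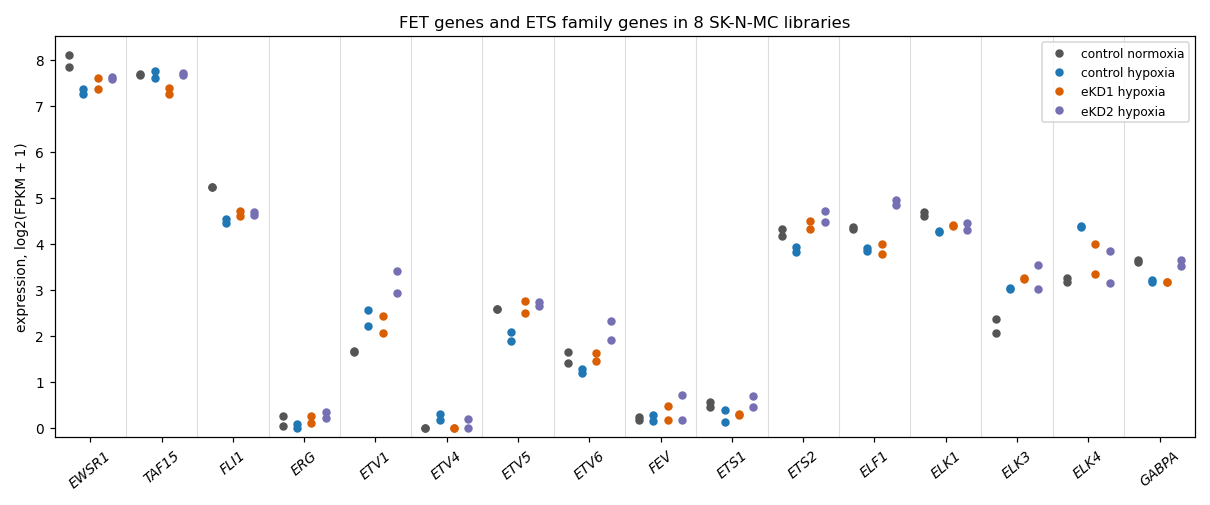
Expression as log2(FPKM + 1) (y axis) of the FET genes EWSR1 and TAF15, of FLI1 and of 13 further ETS family genes (x axis), with 1 point per library coloured by group. ERG, ETV4, FEV and ETS1 lie near 0 in all 8 libraries, and EWSR1 and TAF15 lie highest.

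PTPRC, a leukocyte marker, is given here because blood cells also express FLI1. It measured 22.5 and 23.8 FPKM in control normoxia and 4.87 and 5.39 in control hypoxia, against 10.0 and 9.59 in the eKD1 libraries and 14.3 and 13.5 in those of eKD2. The other leukocyte markers were at or near 0, with CD3E listed at 0 in every library and CD14 at or below 0.472 FPKM. CDH5 and VWF, which mark endothelial cells, another FLI1-expressing type, stayed at or below 0.821 and 0.0455 FPKM. Summed over these 3 leukocyte markers the level was 22.5 to 24.2 FPKM in control normoxia, 4.87 to 5.39 in control hypoxia, 10.0 to 10.1 in eKD1 and 13.9 to 14.3 in eKD2. The sum was lowest in control hypoxia, as FLI1 was, and its part in the FLI1 result was not tested.

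The 5 genes whose pattern over the 8 libraries was most like that of FLI1, by the root mean square difference of centred log2(FPKM + 1) among 10679 genes with a mean of at least 5 FPKM, were ZNF326, NOL11, SMIM15, DHX29 and GNL3L. Their distances were 0.0575 to 0.0677, against a median of 0.372 over all candidates. ZNF326, the nearest, measured 54.0 and 52.5 FPKM in control normoxia and 31.1 and 33.7 FPKM in control hypoxia. By the same measure EWSR1 stood at 0.135 and SOX2 at 0.150 from FLI1, nearer than the other members, and GLI1 at 0.618 was the farthest.

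NR0B1 (chromosome X at 30322323 to 30327507, minus strand, GRCh37) encodes DAX1, an orphan nuclear receptor that lacks the usual DNA-binding domain and acts as a corepressor. Its promoter repeat is a well-known binding site of the fusion. Expression was 64.5 and 55.6 FPKM in the normoxia libraries, 32.5 and 32.0 under hypoxia in control cells, 48.4 and 66.8 in eKD1 and 65.2 and 71.6 in eKD2. Control hypoxia stood apart below every other library, the eKD1 libraries lay on either side of the normoxia range, and both eKD2 libraries lay just above it. NR0B1 fell by 0.87 in hypoxia (SE 0.0989, limma adjusted p = 0.0122) and was higher in eKD2 than in control hypoxia by 1.06 (SE 0.0759, limma adjusted p = 0.0273), at 212% of it. In eKD1 the difference was 0.80 (SE 0.177, limma adjusted p = 0.145), with a wide gap between its 2 libraries.

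NKX2-2 (chromosome 20 at 21491655 to 21494702, minus strand, GRCh37) encodes a homeodomain factor that represses transcription in Ewing sarcoma cells and patterns the ventral neural tube in development. It measured 33.5 and 36.1 FPKM in control normoxia and 30.0 and 27.6 in control hypoxia, against 36.0 and 34.4 in the eKD1 libraries and 26.9 and 28.7 in those of eKD2. The eKD1 libraries lay in the normoxia range and the eKD2 libraries overlapped control hypoxia. NKX2-2 differed by -0.27 in hypoxia (SE 0.0896, limma adjusted p = 0.0984), by 0.28 in eKD1 (limma adjusted p = 0.191) and by -0.05 in eKD2 (limma adjusted p = 0.741). Of the 2123 bases in its exons, 638 are shared with NKX2-2-AS1, and reads within the shared bases cannot be assigned without strand.

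SOX2 (chromosome 3 at 181429713 to 181432224, plus strand, GRCh37) encodes an HMG-box factor of pluripotent and neural progenitor cells. Control normoxia held 71.0 and 72.3 FPKM, control hypoxia 34.3 and 36.2, eKD1 52.2 and 51.5, and eKD2 43.8 and 43.0 FPKM. The 4 groups did not overlap, in the order control normoxia, eKD1, eKD2 and control hypoxia. SOX2 fell by 1.00 in hypoxia (SE 0.0663, limma adjusted p = 0.00778), to 49.2% of normoxia. It exceeded control hypoxia by 0.54 in eKD1 (SE 0.0675, limma adjusted p = 0.104) and by 0.29 in eKD2 (SE 0.0677, limma adjusted p = 0.0772), neither past the threshold.

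GLI1 (chromosome 12 at 57853568 to 57866051, plus strand, GRCh37) encodes the zinc-finger activator at the end of the Hedgehog pathway and is a known target of the fusion. It measured 13.9 and 9.41 FPKM in the normoxia libraries, 19.8 and 20.2 under hypoxia in control cells, 16.5 and 17.9 in eKD1 and 18.5 and 24.7 in eKD2. Every hypoxic library lay above both normoxic ones. The difference of 0.75 in hypoxia (SE 0.209, limma adjusted p = 0.066) was not called, and in a shared fit of the other 7 libraries it was 1.01 (limma adjusted p = 0.0184) without control normoxia replicate 1 and 0.49 (limma adjusted p = 0.114) without replicate 2. Without control hypoxia replicate 1 or 2 it stayed uncalled, at 0.77 and 0.74. PTCH1, a Hedgehog receptor and itself a GLI target, differed the other way in hypoxia, by -0.73 (limma adjusted p = 0.0559), and was called higher in eKD2 by 0.59 (SE 0.0927, limma adjusted p = 0.0462).

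BCL11B (chromosome 14 at 99635624 to 99738534, minus strand, GRCh37) encodes a zinc-finger factor best known for commitment of T cells. Levels were 36.9 and 34.5 FPKM in control normoxia and 23.8 and 25.9 in control hypoxia, against 33.2 and 35.8 in the eKD1 libraries and 37.5 and 37.5 in those of eKD2. Both eKD groups lay above control hypoxia, and the eKD2 libraries were also above both of normoxia. It fell by 0.51 in hypoxia (SE 0.0888, limma adjusted p = 0.0261) and was higher in eKD2 than in control hypoxia by 0.58 (SE 0.0791, limma adjusted p = 0.0381). In eKD1 the difference was 0.46 (SE 0.0904, limma adjusted p = 0.13). BCL11A, its paralogue, was listed at 0 in all 8 libraries.

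KLF15 (chromosome 3 at 126061478 to 126076251, minus strand, GRCh37) encodes a Krüppel-like factor that has been placed with TCF4 and NKX2-2 in a circuit of the Ewing sarcoma state. It was low, at 4.82 and 2.59 FPKM in the normoxia libraries, 0.927 and 0.715 under hypoxia in control cells, 0.955 and 1.64 in eKD1 and 2.35 and 1.74 in eKD2. All hypoxic libraries lay below both normoxic ones, but the 2 normoxia libraries differed widely. KLF15 fell by 1.33 in hypoxia (SE 0.298, limma adjusted p = 0.0423). The fall was -0.98 without control normoxia replicate 1 (limma adjusted p = 0.0624, shared fit of the other 7 libraries), and -1.41 and -1.25 without control hypoxia replicate 1 or 2 (limma adjusted p = 0.0575 and 0.0767). Without control normoxia replicate 2 it was -1.68 and remained called (limma adjusted p = 0.0149). TCF4 varied within groups, from 105 to 164 FPKM in control hypoxia and from 177 to 323 FPKM in eKD2, and was called in no comparison.

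EGR2 (chromosome 10 at 64571756 to 64578927, minus strand, GRCh37) encodes a zinc-finger factor of Schwann cell myelination and lies in a susceptibility locus of Ewing sarcoma. Control normoxia held 4.81 and 4.72 FPKM, control hypoxia 0.497 and 0.456, eKD1 2.48 and 3.96, and eKD2 2.16 and 1.14 FPKM. Control hypoxia lay lowest, eKD2 and eKD1 between it and normoxia. EGR2 decreased by 1.96 in hypoxia (SE 0.15, limma adjusted p = 0.00809), the largest difference of the 10 genes, to 10.0% of normoxia. The differences to control hypoxia of 1.49 in eKD1 (SE 0.237, limma adjusted p = 0.118) and 0.82 in eKD2 (SE 0.25, limma adjusted p = 0.121) were not called. Other early response factors of its family stayed under 1 FPKM in every library, with EGR1 at or below 0.548 FPKM and EGR3 at or below 0.329 FPKM. In control hypoxia EGR2 was under 1 FPKM too.

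MYBL1 (chromosome 8 at 67474410 to 67526482, minus strand, GRCh37) encodes A-MYB, a cell cycle and germ cell factor. Expression was 8.16 and 7.72 FPKM in control normoxia and 9.68 and 11.5 in control hypoxia, against 9.55 and 9.93 in the eKD1 libraries and 7.54 and 8.20 in those of eKD2. The eKD2 libraries overlapped normoxia and the eKD1 libraries overlapped control hypoxia. MYBL1 differed by 0.37 in hypoxia (SE 0.137, limma adjusted p = 0.12) and by -0.38 in eKD2 (SE 0.137, limma adjusted p = 0.158). Its relative MYBL2 was more abundant, at 167 FPKM in both normoxia libraries and 193 and 202 FPKM in control hypoxia, and rose by 0.24 (SE 0.0484, limma adjusted p = 0.0351), although under equal FPKM totals it was no longer called.

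The knockdown comparisons asked how the same genes stand in hypoxia when the LOXHD1 enhancer is repressed. NR0B1 and BCL11B were higher in eKD2 than in control hypoxia and passed the test, 2 of the 10 genes against 5.8% of all genes called higher. None of the 10 passed in eKD1 with limma, where only 0.0651% of all genes were called. Of the 10, 5 had an unadjusted p under 0.05, a looser threshold at which the share of all genes was not computed. In a shared fit of all 8 libraries 4 of the 10 (NR0B1, SOX2, BCL11B and EGR2) were called higher, against 2.89% of all genes. Both eKD1 libraries lay above both control hypoxia libraries for 8 of the 10, against 27.6% of all genes, and both eKD2 libraries did so for 7 of the 10, against 35.8%. The median difference was 0.30 in eKD1 and 0.30 in eKD2, against 0.00 and 0.05 for all genes.

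Both knockdown comparisons use the same 2 control hypoxia libraries, which also enter the hypoxia comparison, so a chance low value there would raise all eKD differences and lower the hypoxia difference together. The NR0B1 call in eKD2 was lost without control hypoxia replicate 1 (1.07, limma adjusted p = 0.0578), control hypoxia replicate 2 (1.05, limma adjusted p = 0.0601) or eKD2 replicate 2 (0.99, limma adjusted p = 0.0559), and the BCL11B call without control hypoxia replicate 1 (0.52, limma adjusted p = 0.0584) or eKD2 replicate 1 (0.58, limma adjusted p = 0.051), each in a shared fit of the other 7 libraries. Among all calls in eKD2, 60.3% were higher, 46.3% after median-of-ratios rescaling and 77.5% with equal totals, and neither rescaling turned the direction of NR0B1 or BCL11B.

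**Figure D3:**
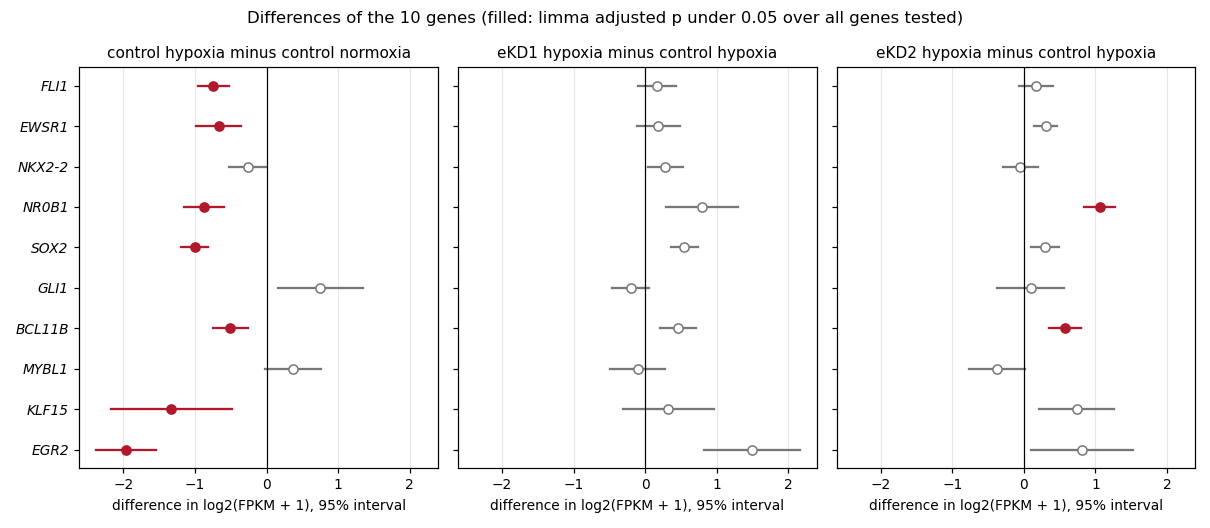
Differences in log2(FPKM + 1) of the 10 genes (y axis) with 95% intervals from limma (x axis), in 3 comparisons that share the control hypoxia libraries. Filled red points passed an adjusted p of 0.05 over 15372 genes: 7 in hypoxia, all negative, 0 in eKD1 and 2 in eKD2, NR0B1 and BCL11B.

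The guides were compared directly, without the control libraries. None of the 10 genes was called between eKD2 and eKD1 by limma, where 0.403% of all genes were. In a shared fit of all 8 libraries 0 of the 10 were called, where 9.05% of all genes were. Of the 10, 2 had an unadjusted p under 0.05, and the share of all genes at that threshold was not computed. The 2 were NKX2-2, lower in eKD2 (difference -0.33, 95% interval -0.56 to -0.10, limma adjusted p = 0.14), and SOX2 (difference -0.25, 95% interval -0.43 to -0.07, limma adjusted p = 0.141). EGR2 had the widest interval, -1.58 to 0.23 around -0.68. FLI1 differed by 0.01, with an interval of -0.26 to 0.27.

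A comparison of the hypoxic knockdown cells with control normoxia does not use the control hypoxia libraries. Oxygen and guide both differ in it, so their effects cannot be told apart. FLI1 and SOX2 were lower than in normoxia in both. FLI1 differed by -0.58 in eKD1 (SE 0.0866, limma adjusted p = 0.0407) and by -0.57 in eKD2 (SE 0.0781, limma adjusted p = 0.0267), and SOX2 by -0.46 (limma adjusted p = 0.0353) and -0.71 (limma adjusted p = 0.0169). They were the 2 of 10 genes called, against 4.75% of all genes called lower in eKD1 and 7.83% in eKD2. The NR0B1 difference was -0.07 in eKD1 (95% interval -0.62 to 0.48) and 0.19 in eKD2 (95% interval -0.12 to 0.49), and that of BCL11B was -0.05 (95% interval -0.29 to 0.20) and 0.07 (95% interval -0.15 to 0.29). EGR2 in eKD2 was -1.15 (limma adjusted p = 0.0557). It was called at -1.20 after median-of-ratios rescaling and at -1.26 with equal totals, so the outcome depended on scaling. With a library left out, the EGR2 difference ranged from -1.43 without eKD2 replicate 1 to -0.87 without eKD2 replicate 2. Leaving out 1 library moved several uncalled differences across the threshold in the shared fit of the other 7. EWSR1 in eKD1 was -0.49 (limma adjusted p = 0.109), called at -0.62 and -0.61 without control normoxia replicate 2 or eKD1 replicate 1, and uncalled at -0.35 and -0.36 without the other library of either group. KLF15 in eKD1 was -1.01 (limma adjusted p = 0.139), with -1.36 (limma adjusted p = 0.041) without control normoxia replicate 2 and -0.66 (limma adjusted p = 0.191) without replicate 1. EWSR1 in eKD2 was -0.37 (limma adjusted p = 0.0975), with -0.50 (limma adjusted p = 0.0432) and -0.23 (limma adjusted p = 0.224) under the same omissions. GLI1 in eKD2 was 0.84 (limma adjusted p = 0.101), called at 1.11 and 1.04 without control normoxia replicate 1 or eKD2 replicate 1, and uncalled at 0.58 and 0.65 without the other library of either group. Of all calls against normoxia, 56.1% were higher in eKD1 and 59.5% in eKD2, falling to 30.1% and 41.4% with equal totals, and for eKD2 to 49.1% after median-of-ratios rescaling.

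Other regulators of the Ewing sarcoma state were read from a list of 13 genes, of which 12 could be tested. In hypoxia 9 were called lower and 0 higher, against 16% and 16.2% of all genes tested. Their median was -0.68, against 0.01 for all genes. SOX6 fell by 1.09 (SE 0.0756, limma adjusted p = 0.00801), PAX7 by 1.01 (limma adjusted p = 0.00763), E2F3 by 0.99 (limma adjusted p = 0.00868) and ZEB2 by 0.90 (limma adjusted p = 0.00801). In eKD2 6 were called higher and 0 lower, against 5.8% and 3.81% of all genes, led by MEIS1, SOX6, ZEB2 and HOXD13. The median of the 12 was 0.57, against 0.05 for all genes. MEIS1, a TALE homeodomain factor, measured 116 and 129 FPKM in control hypoxia and 300.4 and 294 FPKM in eKD2, a difference of 1.27 (SE 0.0703, limma adjusted p = 0.0273). In eKD1 0 were called by limma, against 0.0651% of all genes, with a median of 0.42. An unadjusted p under 0.05 was reached by 9, and the share of all genes at that threshold was not computed. The called counts in hypoxia and eKD2 were 9 and 6 after median-of-ratios rescaling, and 10 and 6 with equal totals. Over all genes the eKD2 calls fell from 1477 to 28 without the variance trend and to 0 with the replicate block. The list was not recounted under these 2 settings.

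Of 19 listed partners and relatives of the 10 genes, 12 were tested. In hypoxia 1 was called higher (MYBL2) and 1 lower, against 16.2% and 16% of all genes tested. The lower one was LIN28B, an RNA-binding repressor of let-7, which fell by 1.15 (SE 0.119, limma adjusted p = 0.0108). In eKD2 2 were called higher and 0 lower, against 5.8% and 3.81% of all genes. The 2 were LIN28B, by 0.67 (SE 0.107, limma adjusted p = 0.0465), and PTCH1, but 0 were called after median-of-ratios rescaling. NR5A1, the nuclear receptor that NR0B1 restrains in steroid-forming tissue, reached at most 0.173 FPKM, and POU5F1, a partner of SOX2 in pluripotent cells, at most 0.269 FPKM.

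Genes that the fusion is known to activate were all tested. Of 15, 10 were called lower in hypoxia and 3 higher, against 16% and 16.2% of all genes tested, with a median of -0.58. LIPI is a lipase gene that the study reports as restricted to Ewing sarcoma among cancers, with marginal expression in normal tissue. It fell by 2.17 (SE 0.107, limma adjusted p = 0.00665), from 49.5 and 57.2 FPKM to 10.8 and 11.2 FPKM. GSTM4, CCK and PPP1R1A rose, GSTM4 by 0.67 (limma adjusted p = 0.0163), but with equal totals only 1 of the 15 was called higher and 12 lower. In eKD2 PDGFC, STEAP2, LIPI and CCND1 were higher than in control hypoxia and CCK and CAV1 lower, 4 and 2 of 15 against 5.8% and 3.81% of all genes. PDGFC, a growth factor, differed by 0.91 (limma adjusted p = 0.0453) and CCK, a neuropeptide, by -0.42 (limma adjusted p = 0.0273).

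Of 9 genes the fusion is known to repress, 5 were tested and 4 rose in hypoxia, against 16.2% of all genes: CDKN1A by 1.72 (limma adjusted p = 0.009), LOX by 1.70 (limma adjusted p = 0.00707), SPRY1 by 0.87 (limma adjusted p = 0.0409) and ZYX by 0.86 (limma adjusted p = 0.0228). FOXO1 differed by -0.03 (limma adjusted p = 0.975). SPRY1 was near the floor, at 0.150 and 0.336 FPKM in control normoxia and 1.11 and 1.44 in control hypoxia. It passed the filter only through hypoxic libraries, where it was high, so the count of 4 depends in part on the filter. LOX, a collagen cross-linking enzyme, and CDKN1A, an inhibitor of cyclin-dependent kinases, are also known to respond to low oxygen. IGFBP3, TGFBR2 and PHLDA1 stayed below 1 FPKM and DKK1 was listed at 0. At these low levels the control hypoxia mean was 26.5% of normoxia for IGFBP3, 45.3% for PHLDA1 and 441% for TGFBR2. In eKD2 LOX alone of the 5 was called, against 5.8% of all genes called higher. It exceeded control hypoxia by 0.45 (limma adjusted p = 0.04), but was not called after median-of-ratios rescaling. In eKD1 limma called 0 of the 15 activated and 0 of the 5 repressed genes, against 0.0651% of all genes. Of these lists 9 and 1 had an unadjusted p under 0.05, and the share of all genes at that threshold was not computed.

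The 6 hypoxia check genes, among them CA9, BNIP3 and SLC2A1, all rose in control hypoxia. In eKD2 PDK1, BNIP3 and SLC2A1 were higher still than in control hypoxia, SLC2A1 by 0.68 (limma adjusted p = 0.0273). They were 3 of the 6, against 5.8% of all genes called higher. VEGFA and CA9 differed by -0.22 and -0.33 and LDHA by -0.01, none of them called. In eKD1 limma called 0 of the 6, where only 0.0651% of all genes were called. Of the 6, 2 had an unadjusted p under 0.05, and the share of all genes at that threshold was not computed. There PDK1 differed from control hypoxia by 0.09, BNIP3 by 0.05, SLC2A1 by 0.47, VEGFA by -0.47, CA9 by -0.0037 and LDHA by -0.05.

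**Figure D4:**
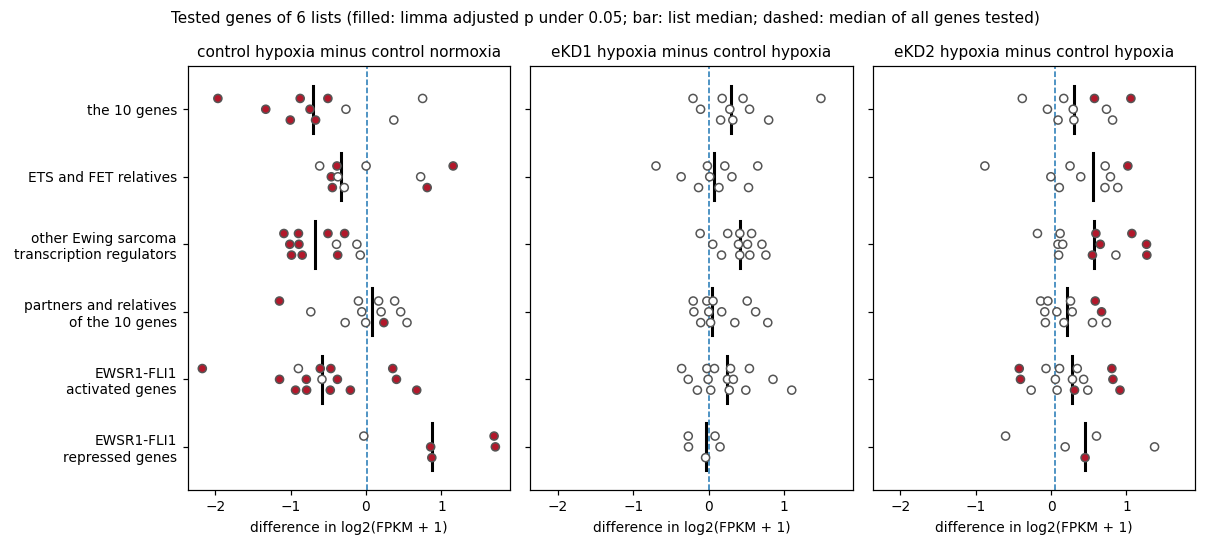
Differences in log2(FPKM + 1) (x axis) of every tested gene in 6 lists (y axis) in 3 comparisons that share the control hypoxia libraries. Filled red points passed an adjusted p of 0.05, black bars are list medians and the dashed line is the median of all genes tested. The other Ewing sarcoma regulators lie left of 0 in hypoxia, 9 of 12 called lower against 16% of all genes tested. In eKD2 they lie mostly right of 0, 6 of 12 called higher against 5.8% of all genes.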

How the data were processed

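RNA was measured in 8 SK-N-MC libraries, 2 for each of 4 groups taken from the sample titles. Per the study's methods and the submitters' processing notes, single-end reads of poly-A selected, unstranded libraries were checked with FastQC, aligned to GRCh37 (hg19) with STAR, and summarised per gene by cufflinks and cuffnorm. The authors deposited FPKM values for 60332 genes in 1 table. The scaling between libraries is not given in the sources used here. The study tested read counts, and the table used here holds FPKM, so limma replaced its count model.

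The filter, 1 FPKM or more in 2 or more of 8 libraries, kept 15372 genes, and log2(FPKM + 1) was fitted for each pair of groups with limma 3.58.1 (lmFit, eBayes with trend) in R 4.3.3. Two-sided p-values were Benjamini-Hochberg adjusted across every gene tested. The fit was checked on simulated data. Alternatives were a pseudocount of 0.1, no filter (genes above 0 in at least 1 library), a mean of at least 5 FPKM, equal FPKM totals, median-of-ratios rescaling, 1 shared fit of the 8 libraries, the replicate number as a block, no variance trend and omission of each library. Omission with a shared fit of the other 7 libraries, which assumes that a lone library varies like the others, was chosen after seeing the data. Named genes are all 10 members, LOXHD1, up to 4 rises and 4 falls per list and comparison, all genes of lists under 10, and the 5 nearest to FLI1. A few others (ERG, ETV4, FEV, ETV1, TAF15, TCF4, BCL11A, EGR1, EGR3, NR5A1, POU5F1 and marker genes) were named after their values were seen. The 10 genes and all lists were chosen with earlier results of these data known, and some listed genes are not reported here. Gene positions and repeats are from GENCODE on GRCh37, and promoters from RefSeq on GRCh38.p14.

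No confidence interval for a single value was computed, since the table holds no counts, and a value of 0 is given as listed. Cufflinks shares reads between overlapping genes, so values of such genes are uncertain.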

Additional observations from a re-analysis of the deposited data

Results flagged for a closer look

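NKX2-2 is listed because both eKD1 libraries lay above the control hypoxia mean of 28.8 FPKM and both eKD2 libraries below it, eKD2 replicate 2 barely, at 28.7 FPKM. The eKD2 libraries overlapped those of control hypoxia, and their difference from it was -0.05 (limma adjusted p = 0.741) and 0.055 with equal FPKM totals, so no fall in eKD2 was shown. The direct difference, eKD2 minus eKD1, was -0.33 on the log2 scale, and limma's test of it did not pass (adjusted p = 0.14). The cause was not tested.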

How the results depend on the processing

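Each comparison rests on 2 libraries against 2, the FPKM table holds no counts, and single values carry no depth-based error. The main fits called 4946 genes in hypoxia, 10 in eKD1, 1477 in eKD2, 62 between the guides, 1662 in eKD1 and 2973 in eKD2 against normoxia, of which 7, 0, 2, 0, 2 and 2 were among the 10 genes. The pseudocount of 0.1 changed no call of the 10 genes.

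Without a filter the counts were 3024, 206, 853, 260, 7 and 1261, with 4 of the 10 genes in hypoxia, 1 in eKD2 and 0 in eKD1 against normoxia. Without a variance trend they were 6 in eKD1, 28 in eKD2, 5 between the guides and 298 in eKD1 against normoxia, with 0 of the 10 genes in eKD2 and in eKD1 against normoxia. A shared fit of all 8 libraries gave 761, 2601, 1391, 3793 and 4551 in the comparisons after hypoxia, with 4 of the 10 genes in eKD1 and 5 in eKD2 against normoxia. The filter at a mean of 5 FPKM gave 105 between the guides, and equal totals called 4 of the 10 genes in eKD2 against normoxia. Where no value shows it, the cause was not tested.

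The replicate numbers share no stated culture or day, and the deviations of same-numbered libraries correlated across genes at -0.0574 to 0.126, so they were not taken as pairs. With the number as a replicate block the fits called 2570 genes in hypoxia, 0 in eKD1, 0 in eKD2, 0 between the guides, 0 in eKD1 and 51 in eKD2 against normoxia, and of the 10 genes 4 in hypoxia and 0 in the others. The block leaves fewer residual degrees of freedom.

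Leaving out 1 library of a 2-against-2 fit gave 0 calls throughout, which says nothing about stability. In a shared fit of the other 7 libraries, calls ranged from 3480 to 4128 in hypoxia, from 20 to 41 in eKD1 (20 and 22 without control hypoxia replicate 1 or 2, 24 and 41 without eKD1 replicate 1 or 2), from 670 to 1034 in eKD2 (670 and 749 without control hypoxia replicate 1 or 2, 924 without eKD2 replicate 1), from 190 to 320 between the guides (with 212 and 229 for the others), and 2045 to 2192 and 2674 to 2981 against normoxia. Of the 10 genes 6 to 7 were called in hypoxia, 0 in eKD1, 0 to 1 in eKD2, 0 between the guides and 2 to 4 in both comparisons with normoxia.

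Differences that changed sign were all uncalled. NKX2-2 in eKD2 was 0.055 with equal totals, FLI1 between the guides -0.041 after median-of-ratios rescaling, NKX2-2 in eKD1 against normoxia -0.0057 and -0.15 under these 2 rescalings, and BCL11B in eKD2 against normoxia -0.000679 and -0.061. With a library left out, MYBL1 in eKD1 ranged from -0.22 to 0.0071, NKX2-2 in eKD2 from -0.11 to 0.011, GLI1 in eKD2 from -0.11 to 0.29, FLI1 between the guides from -0.052 to 0.066 (-0.025 without eKD2 replicate 2) and EWSR1 from -0.0023 to 0.25. Against normoxia, NKX2-2 in eKD1 ranged from -0.034 to 0.068 (-0.015 without eKD1 replicate 1), NR0B1 from -0.30 to 0.15 (0.031 without control normoxia replicate 1), BCL11B from -0.10 to 0.0056, and MYBL1 in eKD2 from -0.066 to 0.041 (0.023 without control normoxia replicate 1).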
